A study of Mus musculus with 18 samples.

Results

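The genes followed here encode 5 subunits of the phagocyte NADPH oxidase, Cyba, Cybb, Ncf1, Ncf4 and Rac2, taken by their symbols from the deposited count tables. All 5 were listed in both tables, which hold 25628 genes in experiment 1 and 26903 in experiment 2. RNA came from 1 line of mouse TgSpi1 erythroleukemic cells, erythroid cells grown from leukemic bone marrow. The line carries a transgene for the transcription factor PU.1, named Spi1, and a doxycycline-inducible short hairpin RNA against Spi1, so both are shared by all 6 groups. Cells were kept in exponential growth with erythropoietin (EPO).

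Experiment 1 held cells without doxycycline (Exp1_NoDox) and cells after 48 h of doxycycline (Exp1_Dox). Experiment 2 crossed doxycycline with the drug entinostat. Its groups were NoDox_DMSO (vehicle, no doxycycline), Dox_DMSO (48 h of doxycycline, vehicle), NoDox_Entinostat (3 µM entinostat for 6 h) and Dox_Entinostat (both agents at those doses and times). Entinostat inhibits class I histone deacetylases, enzymes that remove acetyl groups from histones. Each group had 3 libraries, described by the labels as biological replicates. No group received doxycycline with a control hairpin, so the effect of the drug and that of the hairpin cannot be told apart.

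The phagocyte NADPH oxidase passes electrons from NADPH across a membrane to oxygen and so makes superoxide, which neutrophils and macrophages use against microbes. Its catalytic core, flavocytochrome b558, is a pair of membrane proteins: gp91phox (also NOX2, encoded by Cybb) and p22phox (Cyba), which stabilises its partner and also serves other NOX enzymes. On activation cytosolic subunits, among them p47phox (Ncf1) and p40phox (Ncf4), and the GTPase RAC2 (or RAC1) join the core. PU.1 is known as an activator of several of these genes in myeloid cells, where it binds sites built around the core GGAA. The cells studied here belong to the erythroid lineage, which is not known for an oxidative burst.

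Promoter sequences are shown because these genes stood at very different levels in the same cells, and because the hairpin lowers a factor that binds GGAA. The RefSeq promoter table (GRCm38.p6) held Cyba, Cybb and Ncf1, 3 of the 5 genes; Ncf4 and Rac2 were not matched. The 150 bases before each start are written 5′ to 3′ on the strand of the gene, with GGAA or its reverse complement TTCC in capitals.
Cyba, chr8:122432941-122433090, minus strand: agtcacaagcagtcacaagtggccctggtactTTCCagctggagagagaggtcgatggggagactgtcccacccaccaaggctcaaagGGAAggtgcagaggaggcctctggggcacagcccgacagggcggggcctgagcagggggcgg
Cybb, chrX:9469325-9469474, minus strand: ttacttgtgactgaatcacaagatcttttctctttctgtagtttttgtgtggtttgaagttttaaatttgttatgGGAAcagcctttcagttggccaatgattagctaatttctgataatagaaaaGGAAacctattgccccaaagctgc
Ncf1, chr5:134229626-134229775, minus strand: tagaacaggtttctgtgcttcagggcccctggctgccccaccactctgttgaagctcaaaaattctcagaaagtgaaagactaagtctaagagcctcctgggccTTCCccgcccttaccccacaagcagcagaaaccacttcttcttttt

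These stretches held 2 matches to GGAA on either strand for Cyba, 2 for Cybb and 1 for Ncf1. In the whole 300-base windows, which run 250 bases before to 50 bases after the start, the counts were 2, 4 and 1. Of 32851 promoter windows of this length, 96% held GGAA, so its presence sets no promoter apart. The longer motif GAGGAA (reverse complement TTCCTC, always overlapping a GGAA match) was in 28.3% of the windows. Among the 3 genes it was found in Cybb alone, 1 time, beginning at base 10 after the start. The 30 bases around it, with the match in capitals as its reverse complement, are given next.
Cybb, chrX:9469298-9469327, minus strand: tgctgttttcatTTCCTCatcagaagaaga

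Cyba (ENSMUSG00000006519) lies on mm10 chromosome 8 from 122424776 to 122432930 and Cybb (ENSMUSG00000015340) on chromosome X from 9435252 to 9487771. The RefSeq start used for Cybb lies inside this GENCODE gene model. Ncf1 (ENSMUSG00000015950) lies on chromosome 5 from 134220053 to 134229625. These 3 genes are on the minus strand. Ncf4 (ENSMUSG00000071715, plus strand, 78244801 to 78262580) and Rac2 (ENSMUSG00000033220, minus strand, 78559167 to 78572783) are both on chromosome 15. The library kit does not mark strand, so reads of Cyba and of Gm20388, and reads of Ncf1 and of Gtf2ird2, which overlap them on the other strand, cannot be told apart.

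The depth was 82.7 to 114 M counts per library for experiment 1 and 43.1 to 48.9 M for experiment 2. Levels are written as CPM (counts per M, with TMM-scaled library sizes). A library's deviation from the mean of its group, as the SD over genes on the log2 scale, was 0.522 in Dox_DMSO library 1 and 0.506 in NoDox_Entinostat library 1, against 0.22 to 0.341 in the other 10 libraries of experiment 2. Results of experiment 2 that change without these libraries are given both ways. Spi1, the target of the hairpin, fell with doxycycline in experiment 1 (log2 fold change -1.73 ± 0.10), in DMSO (-1.29 ± 0.33) and in entinostat (-1.59 ± 0.33). Its call in DMSO was lost without NoDox_DMSO library 2 or 3 or Dox_DMSO library 1 or 3. With entinostat Spi1 was not called without doxycycline (0.74 ± 0.33, edgeR adjusted p = 0.0813) or with it (0.43 ± 0.33, adjusted p = 0.26). Without Dox_DMSO library 1 and NoDox_Entinostat library 1 the first value was 1.02 ± 0.18 and was called (adjusted p = 0.000204). In that fit 36.2% of all genes were called higher. Of 20 erythroid markers, 19 stood at 1 CPM or more in every group, with a sum between 5211 and 9644 CPM in each library. In bulk RNA, fewer cells of a type and less RNA per cell cannot be told apart.

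Divided by exon length, the 5 genes spanned a wide range of levels. In NoDox_DMSO, Rac2 stood at 164 ± 7.30 CPM per kb (mean ± SD, n = 3), Cyba at 41.0 ± 5.87 and Ncf4 at 0.497 ± 0.226. Ncf1 stood at 0.00811 ± 0.00939 CPM per kb and Cybb had no count. The order Rac2, Cyba, Ncf4 was the same in each of the 6 groups, with means that differed by more than their SDs. Ncf1 and Cybb held the last places in every group; they differed by at most 9 counts in any library. Rac1, which can take the place of Rac2 in the oxidase, stood at 50.1 ± 3.33 CPM per kb in NoDox_DMSO.

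Cybb, the catalytic subunit, and Ncf1, the organiser of the cytosolic complex, gave almost no reads. In experiment 1, whose table lists no value under 1, Cybb had 1, 2 and 1 counts in Exp1_NoDox against 2, 1 and 2 in Exp1_Dox. Ncf1 had 1, 2 and 3 counts in Exp1_NoDox against 3, 2 and 2 in Exp1_Dox. All of these values are at or below the 3 counts that a count of 0 allows, which correspond to 0.0269 to 0.0359 CPM in these libraries. In experiment 2, Cybb was at 0, 0 and 0 counts in NoDox_DMSO and at 3, 0 and 1 in Dox_DMSO. With entinostat it was at 4, 4 and 3 counts without doxycycline and at 3, 4 and 10 with it. The 3 NoDox_Entinostat libraries all exceeded the 3 NoDox_DMSO libraries, yet most values remained near the 3-count limit of 0.0548 to 0.0737 CPM. Ncf1 was at 3, 1 and 0 counts in NoDox_DMSO and at 0 in each Dox_DMSO library. It was at 3, 9 and 12 counts in NoDox_Entinostat and at 0, 1 and 1 in Dox_Entinostat. The highest Ncf1 values were thus in NoDox_Entinostat libraries 2 and 3, and library 1 of that group equalled the highest NoDox_DMSO library. These limits cover counting error only, because the libraries had no molecular identifiers.

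**Figure D1:**
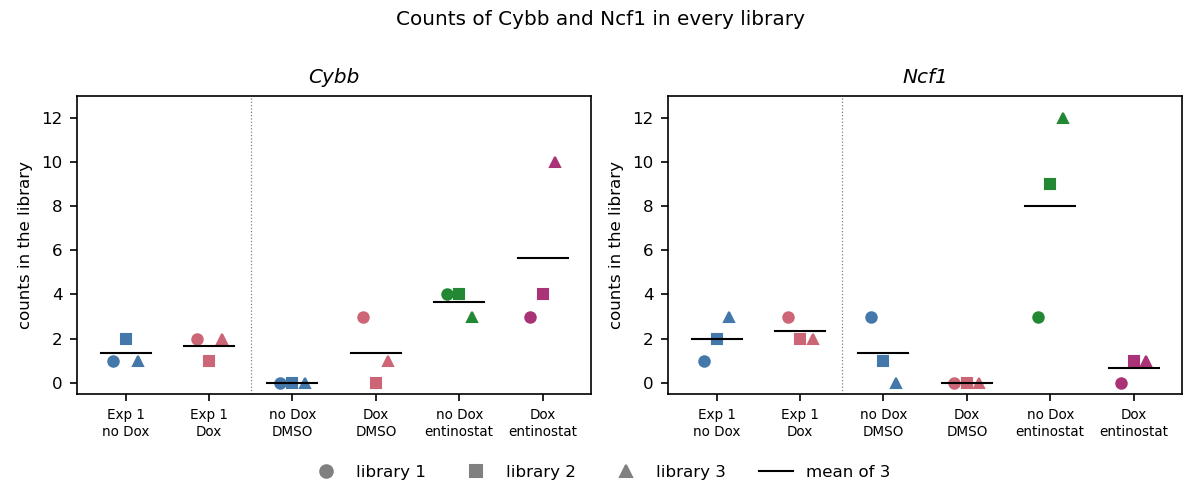
Counts of Cybb (left) and Ncf1 (right) in each library, on a linear axis, for the 6 groups along the x axis; symbols give the library number, black lines the mean of 3 libraries, and the dotted line parts experiment 1 from experiment 2. No library exceeds 10 counts of Cybb or 12 counts of Ncf1, and the highest values are in entinostat groups.

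Neither Cybb nor Ncf1 passed the filter on low counts, which the other 3 genes passed in each experiment. Fitted without that filter, the edgeR test called Cybb higher with entinostat without doxycycline (adjusted p = 0.0243), where 19.3% of 26903 genes were called higher. It called Ncf1 lower with doxycycline in entinostat (adjusted p = 0.0392), where 12.4% of genes were called lower. In this fit Cyba and Rac2 were called lower with doxycycline in both experiments. Of all genes 4.48% were lower in experiment 1 (6.81% in either direction) and 3.04% in DMSO, where 2.06% were higher (5.10% in either direction). The Ncf1 value for entinostat without doxycycline was at adjusted p = 0.098. No fold change is given for these genes, since at least 1 of the groups compared was at or under the limit of detection. Of 15 neutrophil markers, 9 were in the experiment 2 table. Their summed level was 0.195 to 0.382 CPM in NoDox_DMSO libraries, where Elane, Ltf, Camp and Mmp8 were at 0, and 3.44 to 4.24 CPM in NoDox_Entinostat libraries. One marker, Prtn3, reached 1 CPM in that group (mean 2.73 CPM). Of 15 macrophage and monocyte markers, 11 were in the table. Their sum was 18.7 to 21.2 CPM in NoDox_DMSO and 57.5 to 62.3 CPM in NoDox_Entinostat, most of it from Ccr2 (43.5 CPM), with Marco and C1qb at 0. Between these 2 groups both marker sums and the mean counts of Cybb and Ncf1 were higher with entinostat. In Dox_Entinostat both sums were above those of Dox_DMSO, while Ncf1 was at 0, 1 and 1 counts against 0 in each Dox_DMSO library. The part of the markers in the result was not tested. Summed markers of dendritic cells (4.06 to 5.62 CPM in NoDox_DMSO, 8.21 to 10.7 CPM in NoDox_Entinostat), B cells (0.472 to 0.546 and 2.3 to 2.34 CPM) and T and NK cells (1.85 to 3.12 and 8.34 to 12.6 CPM) were higher in NoDox_Entinostat too. Those of mast cells and basophils stood at 231 to 284 and 160 to 215 CPM, and those of megakaryocytes and platelets at 97.4 to 147 and 116 to 141 CPM. Gata2, the highest of the mast cell list, went from 245 to 87.6 CPM, while its markers at 1 CPM or more went from 5 to 8. With the filter, 5 of 8 tested markers were called higher and 1 lower in each of these 2 lists. Of all genes 30.3% were called higher and 16.9% lower. Markers high only with entinostat could pass the filter through those groups alone.

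The first comparison, cells after 48 h of doxycycline against cells without it, shows the genes with Spi1 RNA reduced. Cyba, the membrane partner of the catalytic subunit, stood at 22.1, 33.0 and 37.7 CPM in Exp1_NoDox and at 3.64, 6.65 and 8.33 CPM in Exp1_Dox. Every doxycycline library was below every untreated library, and library 1 was the lowest of its group in both. Cyba fell 4.98-fold, a log2 fold change of -2.32 ± 0.35 (edgeR quasi-likelihood test, adjusted p = 0.0086). Rac2, the GTPase subunit found mainly in blood cells, had 497, 495 and 465 CPM in the Exp1_NoDox libraries against 289, 269 and 294 CPM in the Exp1_Dox libraries. The groups lay far apart next to their spread, and Rac2 fell 1.71-fold (log2 fold change -0.77 ± 0.07, adjusted p = 0.00197). Ncf4, which encodes the phosphoinositide-binding subunit p40phox, had 0.683, 0.691 and 1.09 CPM in the Exp1_NoDox libraries against 0.311, 0.611 and 0.641 CPM in the Exp1_Dox libraries. The groups did not overlap, which was so with the lower level under doxycycline for 16.8% of all genes, but the log2 fold change of -0.66 ± 0.34 did not pass the test (adjusted p = 0.291). Fitted with the replicate number as a block, since same-numbered libraries deviated together in this experiment, Ncf4 had a log2 fold change of -0.65 and passed (adjusted p = 0.0227). In experiment 1, then, 2 of the 3 genes tested were called lower and 0 higher, where 8.36% of all 13811 genes were called lower and 5.26% higher (13.6% in all). With the block, which called all 3 lower, these shares of all genes were 24.7% and 26.1% (50.9% in all). The summed erythroid markers went from 6129 to 6389 CPM in Exp1_NoDox to 8635 to 9458 CPM in Exp1_Dox, and 8 of 19 tested rose. The macrophage and monocyte markers went from 13.7 to 18.7 CPM to 10.9 to 17.8 CPM, and the neutrophil markers from 0.264 to 1.12 CPM to 0.234 to 0.298 CPM. Summed dendritic cell markers, mostly Zbtb46, went from 3.68 to 6.3 CPM up to 10.3 to 11.2 CPM. The part of these markers in the falls of Cyba and Rac2 was not tested.

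In experiment 2 the same comparison was made in vehicle. Cyba stood at 47.1, 35.6 and 45.1 CPM in NoDox_DMSO and at 7.47, 2.77 and 2.76 CPM in Dox_DMSO. Dox_DMSO library 1 was the highest of its group, and all 3 stayed below the untreated libraries. Cyba fell 9.87-fold (log2 fold change -3.30 ± 0.40, adjusted p = 0.000133). Without Dox_DMSO library 1 and NoDox_Entinostat library 1 the log2 fold change was -3.95 ± 0.20. Rac2 stood at 485, 529 and 514 CPM in NoDox_DMSO and at 156, 331 and 296 CPM in Dox_DMSO. The groups did not overlap, as for 14.3% of all genes in this direction, and library 1 was the lowest of Dox_DMSO. The log2 fold change of -0.96 ± 0.28 was just outside the threshold (adjusted p = 0.0515). Same-numbered NoDox_DMSO and Dox_DMSO libraries deviated together (r = 0.102 to 0.334), though pairs of different numbers between these groups reached 0.214. In the blocked fit Rac2 had a log2 fold change of -1.03 and passed (adjusted p = 0.00669). There 7.61% of all genes were called lower and 5.89% higher (13.5% in all). That block was fitted over all libraries of experiment 2, the entinostat groups included, and not over these pairs alone. Without the 2 libraries it was -0.70 ± 0.11 and passed (adjusted p = 0.000348), where 13.9% of 15478 genes were called lower and 17.4% higher (31.3% in all). Ncf4 stood at 0.786, 0.695 and 1.53 CPM in NoDox_DMSO and at 0.540, 0.497 and 0.517 CPM in Dox_DMSO. NoDox_DMSO library 3 was the highest value, the groups did not overlap, and the log2 fold change of -0.95 ± 0.39 did not pass (adjusted p = 0.182). So 1 of 3 genes tested was called lower in DMSO (2 in the blocked fit) and 0 higher, where 5.53% of 15051 genes were called lower and 3.77% higher (9.31% in all). The summed erythroid markers stood at 5265 to 5440 CPM in NoDox_DMSO and at 6842 to 9644 CPM in Dox_DMSO, and 10 of 19 tested rose. The macrophage and monocyte markers went from 18.7 to 21.2 CPM down to 13.9 to 17.0 CPM, without overlap. Ly6c2 and Mrc1 were at 0 in NoDox_DMSO, and Adgre1, Mrc1 and C1qb in Dox_DMSO. The dendritic cell markers, mostly Zbtb46, went from 4.06 to 5.62 CPM up to 9.39 to 15.1 CPM. The part of these markers in the fall of Cyba was not tested.

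The doxycycline comparison in entinostat used other libraries than the one in DMSO. Cyba stood at 70.3, 35.1 and 40.6 CPM in NoDox_Entinostat and at 11.2, 16.6 and 15.9 CPM in Dox_Entinostat. NoDox_Entinostat library 1 was the highest of all 18 libraries, and the groups did not overlap. Cyba fell 3.35-fold (log2 fold change -1.74 ± 0.37, adjusted p = 0.0076). Rac2 stood at 262, 496 and 478 CPM in NoDox_Entinostat and at 157, 168 and 162 CPM in Dox_Entinostat, the lowest group mean of the series. The groups did not overlap although NoDox_Entinostat library 1 was well below its fellows. Rac2 fell 2.54-fold (log2 fold change -1.34 ± 0.29, adjusted p = 0.00795). Ncf4 stood at 2.33, 2.07 and 3.37 CPM in NoDox_Entinostat and at 2.22, 4.68 and 4.47 CPM in Dox_Entinostat. Here the groups overlapped and the log2 fold change of 0.55 ± 0.35 did not pass (adjusted p = 0.238; 95% interval -0.20 to 1.30). In entinostat 2 of 3 genes were called lower and 0 higher, where 15.1% of all genes were called lower and 8.96% higher (24.0% in all). Non-overlapping groups with the lower level under doxycycline, as for Cyba and Rac2, were found for 19.4% of all genes. Without the 2 libraries that stood apart both genes were also called lower, where 35.7% of all genes were (61.8% in either direction). Marker sums moved between these groups as well, without overlap. The macrophage and monocyte markers went from 57.5 to 62.3 CPM in NoDox_Entinostat to 30.6 to 46.3 CPM in Dox_Entinostat, with C1qb at 0 in both, and the neutrophil markers from 3.44 to 4.24 CPM to 1.19 to 2.07 CPM. The erythroid markers went from 5211 to 5341 CPM up to 7317 to 9485 CPM, and 9 of 19 tested rose. Mast cell and basophil markers went from 160 to 215 CPM to 113 to 149 CPM, and dendritic cell markers from 8.21 to 10.7 CPM to 11.1 to 14.8 CPM. The dendritic sum was mostly Zbtb46 (mean 5.97 and 11.7 CPM), while of 4 tested dendritic markers 1 was called higher and 2 lower. The part of all these markers in the falls of Cyba and Rac2 in entinostat was not tested.

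**Figure D2:**
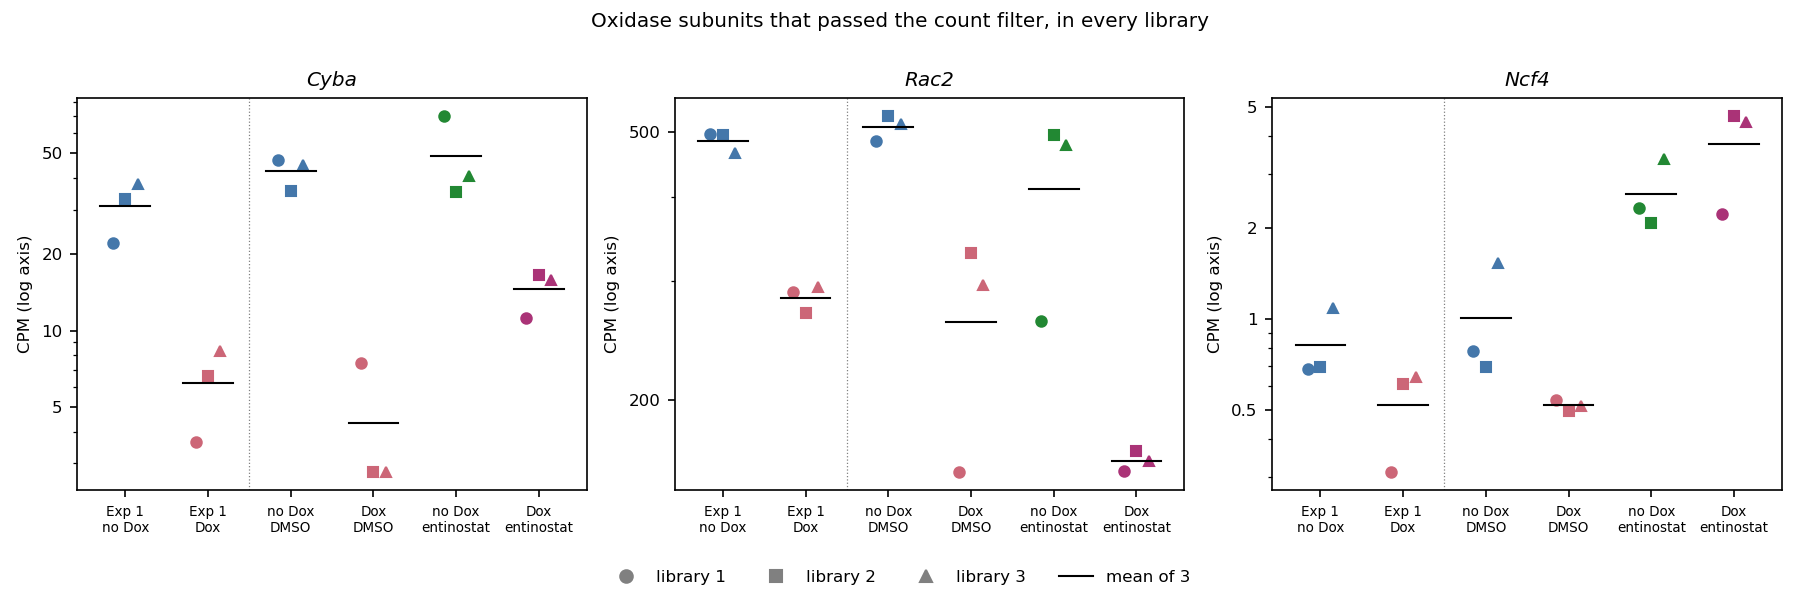
Levels of Cyba, Rac2 and Ncf4 in CPM on log axes, by group along the x axis; symbols give the library number, black lines the mean of 3 libraries, and the dotted line parts the experiments. Cyba is at 16.6 CPM or less in every doxycycline library and at 22.1 CPM or more in every library without it, while Ncf4 is at 2.07 CPM or more in every entinostat library and at 1.53 CPM or less elsewhere.

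Entinostat raised Ncf4 without doxycycline and with it. The 2 entinostat comparisons each share their libraries with the doxycycline comparisons above, so their values are not independent of those. Without doxycycline, the Ncf4 libraries given above went from 0.695 to 1.53 CPM in NoDox_DMSO up to 2.07 to 3.37 CPM in NoDox_Entinostat, with no overlap, as for 33.8% of all genes in this direction. Ncf4 rose 2.58-fold (log2 fold change 1.37 ± 0.36, adjusted p = 0.00759). Cyba had a log2 fold change of 0.19 ± 0.36 (adjusted p = 0.697; 95% interval -0.58 to 0.96) and its groups overlapped. Its sign depended on NoDox_Entinostat library 1: without that library the value was -0.17 (adjusted p = 0.692), and without Dox_DMSO library 1 as well it was also -0.17. Rac2 had a log2 fold change of -0.31 ± 0.28 (adjusted p = 0.405; 95% interval -0.92 to 0.30), again with overlap. So 1 of 3 genes was called higher and 0 lower, where 30.3% of all genes were called higher and 16.9% lower (47.2% in all). A share of 1 in 3 is near that background. Without the 2 libraries Ncf4 was again the gene called higher, where 36.2% of all genes were called higher and 27.7% lower (63.9% in all).

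With doxycycline, entinostat raised both Ncf4 and Cyba. Ncf4 went from 0.497 to 0.540 CPM in Dox_DMSO to 2.22 to 4.68 CPM in Dox_Entinostat. Library 1 was the lowest of Dox_Entinostat and was still above every Dox_DMSO library. Such separation was seen for 35.4% of all genes with the higher level under entinostat and for 30.5% with the lower. Ncf4 rose 7.29-fold (log2 fold change 2.87 ± 0.39, adjusted p = 5.98e-05). Cyba went from 2.76 to 7.47 CPM up to 11.2 to 16.6 CPM, without overlap. It rose 3.37-fold (log2 fold change 1.75 ± 0.38, adjusted p = 0.00147), to a level that was still below every library without doxycycline. Without Dox_DMSO library 1 and NoDox_Entinostat library 1 the Cyba value was 2.39 ± 0.19. Rac2 went from 156 to 331 CPM in Dox_DMSO to 157 to 168 CPM in Dox_Entinostat. These groups overlapped because Dox_DMSO library 1 was the lowest of the 6. The log2 fold change of -0.68 ± 0.28 passed narrowly (adjusted p = 0.0492), and the call was lost with RLE factors (-0.67, adjusted p = 0.0546), with library size alone (-0.56, 0.127) and in 9 of the 12 fits without a single library. The 3 fits that kept it left out NoDox_Entinostat library 1, NoDox_Entinostat library 2 or Dox_DMSO library 1. Without the 2 libraries that stood apart, Rac2 fell by 0.96 on the log2 scale (± 0.11, adjusted p = 2.05e-06), where 34.7% of all genes were called lower and 43.1% higher (77.8% in all). In total 2 of 3 genes were called higher and 1 lower, where 33.9% of all genes were called higher and 29.9% lower (63.7% in all). In Dox_Entinostat the summed neutrophil markers stood at 1.19 to 2.07 CPM against 0.0432 to 0.237 CPM in Dox_DMSO, and the macrophage and monocyte markers at 30.6 to 46.3 against 13.9 to 17.0 CPM. The summed erythroid markers stood at 7317 to 9485 CPM in Dox_Entinostat. The part of these markers in the rises of Ncf4 and Cyba was not tested.

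The interaction compares the doxycycline effect in entinostat with that in DMSO. With all libraries the difference was 1.56 ± 0.52 for Cyba (adjusted p = 0.306), 1.5 ± 0.52 for Ncf4 (adjusted p = 0.314) and -0.38 ± 0.40 for Rac2 (adjusted p = 0.581). None of the 3 passed, while Cyba and Ncf4 were under an unadjusted p of 0.05 (0.00982 and 0.0131). Of all genes, 0.166% were called higher and 0.106% lower (0.272% in all). Without Dox_DMSO library 1 and NoDox_Entinostat library 1 all 3 passed: Cyba at 2.56 ± 0.25 (adjusted p = 3.61e-06), Ncf4 at 1.46 ± 0.58 (0.0488) and Rac2 at -0.89 ± 0.15 (0.000235). In that fit 21.5% of all genes were called higher and 51.5% in either direction. The 2 libraries left out deviated from their groups together (r = 0.78), and both groups enter the interaction with a minus sign. Cyba also passed without either of these libraries alone, at 2.20 without Dox_DMSO library 1 (adjusted p = 0.0137) and at 1.92 without NoDox_Entinostat library 1 (adjusted p = 0.033). It passed with no filter on low counts as well (1.48, adjusted p = 0.0433).

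**Figure D3:**
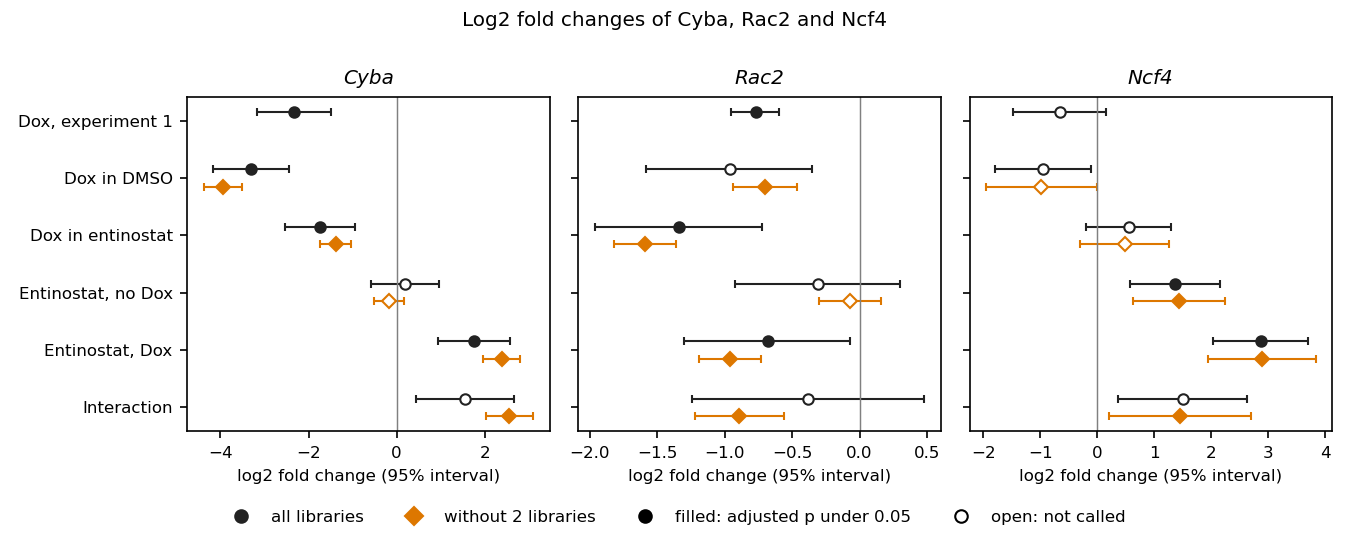
Log2 fold changes with 95% intervals (x axis) of Cyba, Rac2 and Ncf4 in the 6 comparisons (y axis); black circles use all libraries, orange diamonds leave out Dox_DMSO library 1 and NoDox_Entinostat library 1, and filled symbols mark an adjusted p under 0.05. Cyba lies left of 0 in each doxycycline comparison, Ncf4 lies right of 0 in both entinostat comparisons, and the intervals of Cyba and Rac2 are narrower without the 2 libraries.

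The partners of the oxidase were followed through a list of 17 genes, of which 8 were tested in experiment 1 and 10 in experiment 2. Rac1, the widely expressed relative of Rac2, fell with doxycycline in experiment 1 (-0.77 ± 0.08), in DMSO (-0.73 ± 0.21) and in entinostat (-1.23 ± 0.21), all as log2 fold changes. Rac1 also fell with entinostat in the presence of doxycycline (-0.60 ± 0.21, edgeR adjusted p = 0.0211), and was not called without doxycycline (-0.11 ± 0.20, adjusted p = 0.698). The Rac1 call in DMSO was lost in 11 of the 12 fits without a single library, all but that without NoDox_Entinostat library 1, and the entinostat call without Dox_DMSO library 2 or 3 or Dox_Entinostat library 2 or 3. Daglb overlaps Rac1 on the other strand, so their reads cannot be told apart. Arhgdib, an inhibitor that holds RAC proteins in the cytosol, fell 2.22-fold in experiment 1 and 2.80-fold in DMSO. Moesin (Msn), which links membranes to actin, fell in experiment 1 (-0.83 ± 0.10) and in entinostat (-1.68 ± 0.36). In each doxycycline comparison no partner rose: 4 of 8 fell in experiment 1, 3 of 10 in DMSO and 4 of 10 in entinostat, where 8.36%, 5.53% and 15.1% of all genes fell. The medians over the tested partners were -0.70, -0.64 and -0.47, against 0.02, 0.05 and -0.08 over all genes. With the replicate block 7 of 8 partners fell in experiment 1, where 24.7% of all genes did. Without Dox_DMSO library 1 and NoDox_Entinostat library 1, 6 fell in DMSO, where 13.9% of all genes did. Without NoDox_Entinostat library 1 alone, 2 partners were called higher with doxycycline in entinostat. Without both libraries 2 were also called higher there, where 26.1% of all genes were.

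Nox1, which encodes a catalytic relative of gp91phox known from colon epithelium and able to use p22phox, was detected where Cybb was not. It stood at 0.584, 0.630 and 0.633 CPM in NoDox_DMSO and at 9.52, 10.5 and 13.5 CPM in NoDox_Entinostat. It rose 18.1-fold (log2 fold change 4.18 ± 0.28, adjusted p = 4.64e-07). In Dox_DMSO it stood at 0.0982, 0.130 and 0.108 CPM and in Dox_Entinostat at 0.850, 0.750 and 1.37 CPM, an 8.63-fold rise (log2 fold change 3.11 ± 0.34, adjusted p = 1.19e-05). Doxycycline lowered it in experiment 1 (-1.86 ± 0.33, adjusted p = 0.015; call lost without library 3 of either group), in DMSO (-2.43 ± 0.35, adjusted p = 0.000498) and in entinostat (-3.49 ± 0.26, adjusted p = 1.42e-05). Thus all 3 NoDox_Entinostat libraries were far above the libraries of every other group. The Dox_DMSO libraries held only 4, 6 and 5 counts of Nox1, so the size of fold changes against that group is uncertain. Duoxa2, the maturation factor of the oxidase DUOX2, was also called higher with entinostat. It had 0, 0.0217 and 0 CPM in NoDox_DMSO and 0.252, 0.0365 and 0.111 CPM in NoDox_Entinostat, and was at 0 in all Dox_DMSO libraries against 0.403, 0.318 and 0.220 CPM in Dox_Entinostat. Its call without doxycycline was lost without NoDox_DMSO library 1 or 3 or NoDox_Entinostat library 1. Duoxa2 had at most 1 count in any DMSO library, so it passed the count filter only through entinostat libraries. Its rises are described here and are no test, because the groups where it was high admitted it.

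With entinostat in the presence of doxycycline 5 of 10 partners rose, Duoxa2 among them, and 3 fell (median 0.24, all genes 0.14). Of all genes 33.9% rose and 29.9% fell. Rap1a, a small GTPase that copurifies with the flavocytochrome, rose 2.25-fold there (log2 fold change 1.17 ± 0.28). Noxo1, the organiser of the NOX1 enzyme, rose from 0.361 to 1.07 CPM (1.55 ± 0.40, adjusted p = 0.0045), and Arhgdib rose by 0.71 ± 0.21 on the log2 scale, a call lost without Dox_DMSO library 2 or 3. Arhgdia, a relative of Arhgdib, fell 2.26-fold there, from 229, 442 and 445 CPM to 175, 154 and 165 CPM (-1.18 ± 0.29, adjusted p = 0.00381); Dox_DMSO library 1 was again far below libraries 2 and 3. Prdx6, a peroxiredoxin with phospholipase activity that supports the oxidase, fell in both entinostat comparisons (-0.48 ± 0.18 without doxycycline and -0.49 ± 0.18 with it). The first call of Prdx6 was lost in 9 of the 12 fits without a single library, all but those without Dox_DMSO library 1 or Dox_Entinostat library 1 or 2, the second without Dox_DMSO library 2 or 3 or Dox_Entinostat library 2, and both with library size alone (-0.22 and -0.36). Cybc1, a chaperone of the flavocytochrome, stood at 71.0 CPM in NoDox_DMSO and was not called in any comparison of experiment 2. Without doxycycline 2 of 10 partners rose and 1 fell (median 0.08, all genes 0.07), where 30.3% of all genes rose and 16.9% fell; whether the 2 entinostat counts differ was not tested. The rises were those of Nox1 and Duoxa2, the latter tested only through its entinostat counts, and the fall that of Prdx6. That count was not stable: 4 or 5 were higher in 10 of the 12 fits without a single library, all but those without NoDox_Entinostat library 2 or 3, and none was lower in 8 of them. With doxycycline only 1 fell without Dox_DMSO library 2 or 3 or Dox_Entinostat library 2. With library size alone 3 rose and none fell without doxycycline, and 1 fell with it. The proton channel gene Hvcn1 did not pass the filter.

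**Figure D4:**
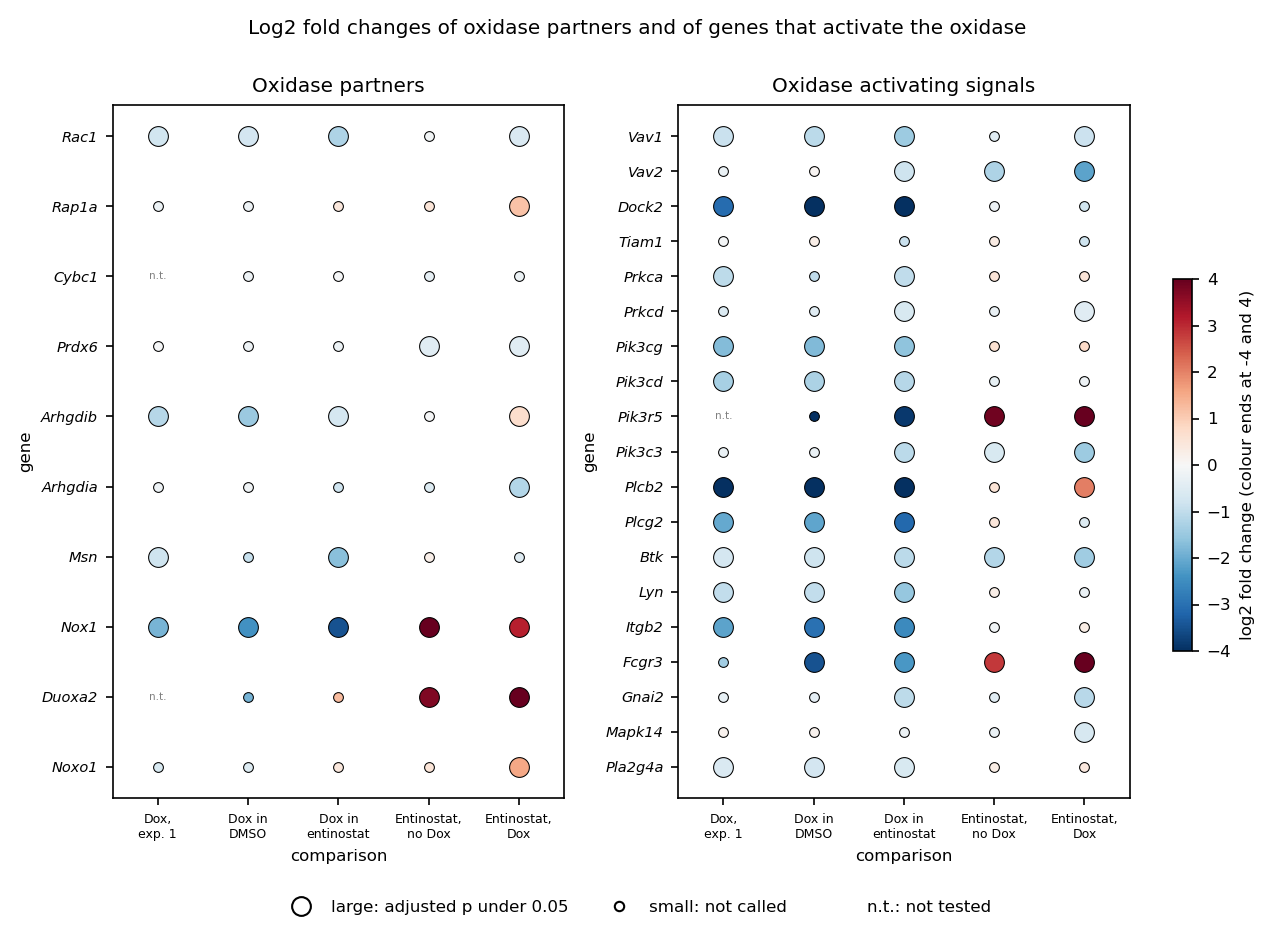
Log2 fold changes (colour, from -4 to 4) of the tested oxidase partners (left) and of the tested genes of signals that activate the oxidase (right) in 5 comparisons along the x axis; large circles mark an adjusted p under 0.05, small circles genes not called, and n.t. genes not tested. With all libraries no gene of either list rose with doxycycline. The colours of Duoxa2, Pik3r5, Fcgr3, Nox1 and Plcb2 rest on groups near 0 CPM.

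The oxidase is switched on by receptors, kinases and exchange factors, and 29 genes of such signals were listed. None rose with doxycycline, while 11 of 18 tested fell in experiment 1, 11 of 19 in DMSO and 17 of 19 in entinostat, against 8.36%, 5.53% and 15.1% of all genes. With the replicate block 1 was called higher in experiment 1, where 26.1% of all genes were. Without Dox_DMSO library 1 and NoDox_Entinostat library 1, 1 was called higher in DMSO, where 17.4% of all genes were. Their median log2 fold changes were -0.94 in experiment 1, -1.01 in DMSO and -1.13 in entinostat. Dock2, an exchange factor that loads RAC proteins with GTP, fell 8.52-fold in experiment 1 (from 149, 73.5 and 103 CPM to 11.4, 13.5 and 13.4 CPM), 16.1-fold in DMSO and 23.9-fold in entinostat. Plcb2, a phospholipase C downstream of chemoattractant receptors, fell 46.0-fold in DMSO (from 9.62, 13.7 and 18.1 CPM to 0.147, 0.324 and 0.409 CPM). The Dox_DMSO libraries held only 6, 15 and 19 counts of Plcb2, so the size of this fall is uncertain. Itgb2, the beta chain of the leukocyte integrins, fell 4.37-fold in experiment 1, 7.81-fold in DMSO and 5.80-fold in entinostat. In all 3 comparisons the groups of Dock2 and Itgb2 did not overlap. The gamma isoform of phosphoinositide 3-kinase, Pik3cg, fell 3.35-fold in experiment 1, its relative Pik3cd fell 2.40-fold in DMSO, and the kinase Lyn fell 1.98-fold in experiment 1. The count in experiment 1 was 5 without Exp1_NoDox library 3, 7 without Exp1_Dox library 2 and 6 without Exp1_Dox library 3. In DMSO it was 6, 6 and 5 without NoDox_DMSO libraries 1, 2 and 3 and 6 without Dox_DMSO library 2, and in entinostat it was 11 without Dox_Entinostat library 3.

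With entinostat these signals split. Without doxycycline 2 of 19 rose and 3 fell, and with doxycycline 3 rose and 7 fell, with medians of -0.14 and -0.47 against 0.07 and 0.14 over all genes. Of all genes 30.3% rose and 16.9% fell without doxycycline, and 33.9% and 29.9% with it. Both counts of falls were near these shares. Pik3r5, a regulatory subunit of the gamma phosphoinositide 3-kinase, stood at 0.0449, 0.195 and 0.0873 CPM in NoDox_DMSO and at 0.882, 1.94 and 2.15 CPM in NoDox_Entinostat (log2 fold change 3.89 ± 0.63, adjusted p = 0.000503). Fcgr3, an activating receptor for antibody, went from 0.180, 0.152 and 0.262 CPM to 1.95, 1.15 and 1.20 CPM (log2 fold change 2.84 ± 0.53). Both thus rose from a very low level. They were the 2 rises counted without doxycycline, and they passed the count filter only through entinostat libraries. Their rises are therefore no test, and the same 2 genes are among the 19 counted with doxycycline. Btk, a kinase of immune receptor signalling, fell 2.26-fold without doxycycline and 2.69-fold with it, and Vav2, an exchange factor for RAC, fell 4.38-fold with it. Plcb2 rose 4.11-fold with entinostat in the presence of doxycycline, from 0.147, 0.324 and 0.409 CPM to 0.649, 1.48 and 1.56 CPM. The count of rises without doxycycline was 5 without NoDox_Entinostat library 1 and 9 without both libraries that stood apart, where 36.2% of all genes rose. The count of falls with doxycycline was 4 without Dox_DMSO library 3, and 12 without both, where 34.7% of all genes fell. With library size alone it was 4, where 3712 of 15051 genes fell.

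Of 18 transcription factors known to act on phagocyte oxidase genes, 9 were tested in each experiment. Besides Spi1, the related ETS factor Elf1 fell with doxycycline in experiment 1 (-0.89 ± 0.10), in DMSO (-0.97 ± 0.23) and in entinostat (-0.90 ± 0.23). These Elf1 calls were lost in DMSO without NoDox_DMSO library 2 or 3, and in entinostat without library 2 or 3 of either group. Cebpb, a myeloid bZIP factor, rose by 0.58 on the log2 scale in experiment 1 (± 0.13, adjusted p = 0.0308), a call lost without Exp1_NoDox library 1 or 3 or Exp1_Dox library 2 or 3. Irf1, an interferon-regulated factor that can act on Cybb, rose with entinostat without doxycycline, from 5.55, 5.45 and 7.94 CPM to 11.1, 13.8 and 14.9 CPM (1.07 ± 0.22, adjusted p = 0.00151), and with it (1.43 ± 0.22). Irf2 and Rela fell with entinostat in the presence of doxycycline (-1.30 ± 0.33 and -1.23 ± 0.26). In experiment 1 the list gave 1 rise and 2 falls, in DMSO 2 falls, and in entinostat 6 falls with doxycycline. Spi1, the target of the hairpin, was 1 of the falls in each, which leaves Elf1 alone in experiment 1 and in DMSO. Of all genes 5.26% rose and 8.36% fell in experiment 1, 5.53% fell in DMSO and 15.1% in entinostat. With entinostat 1 rose and 0 fell without doxycycline, where 30.3% of all genes rose and 16.9% fell. With doxycycline 1 rose and 4 fell, where 33.9% rose and 29.9% fell. Irf8 and Cebpa, factors of the phagocyte lineages, were not tested in experiment 1, where each stood at the lowest value of the table in all libraries (mean 0.0107 CPM in either group).

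The oxidase draws on NADPH, and 12 genes of NADPH supply were all tested. With doxycycline 3 fell in experiment 1, 1 in DMSO and 7 in entinostat, and none rose, where 8.36%, 5.53% and 15.1% of all genes fell. A share of 1 in 12 in DMSO is near that background. The cytosolic isocitrate dehydrogenase Idh1 fell 1.81-fold in experiment 1 and in DMSO, and the transhydrogenase Nnt fell 1.96-fold in experiment 1. The Idh1 calls were lost without Exp1_NoDox library 3 and without NoDox_DMSO library 3. With entinostat in the presence of doxycycline 10 of 12 fell and 1 rose (median -0.79), where 29.9% of all genes fell and 33.9% rose. The falls included Pgd of the pentose phosphate pathway (3.06-fold) and the NAD kinase Nadk (2.34-fold). Pgd in Dox_DMSO library 1 (129 CPM) was far below libraries 2 and 3 (291 and 275 CPM), as it was for Rac2.

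Of 26 genes of superoxide and peroxide removal, 23 were tested. Catalase (Cat), which splits hydrogen peroxide, fell 5.31-fold in experiment 1 (from 194, 170 and 170 CPM to 31.4, 37.9 and 31.2 CPM), 6.01-fold in DMSO and 6.27-fold in entinostat. It was the 1 gene of the list that fell in experiment 1 and in DMSO, where 3 and 2 genes rose (of all genes, 5.26% and 3.77% rose and 8.36% and 5.53% fell). The rises included Srxn1 (1.54-fold), which repairs peroxiredoxins, and Gclc (1.43-fold), a subunit of the enzyme that limits glutathione synthesis, both in experiment 1. The call of Srxn1 was lost without Exp1_NoDox library 3, and that of Gclc without Exp1_NoDox library 2 or 3 or Exp1_Dox library 1 or 2. With doxycycline in entinostat 5 genes rose and 2 fell, Cat among them, where 8.96% of all genes rose and 15.1% fell. With entinostat 9 of 23 fell without doxycycline and 11 with it, against 0 and 2 rises, where 16.9% and 29.9% of all genes fell and 30.3% and 33.9% rose. The mitochondrial superoxide dismutase Sod2 fell 1.89-fold without doxycycline and 3.09-fold with it. Nfe2l2, the NRF2 activator of antioxidant genes, fell 2.32-fold and 4.14-fold, and its inhibitor Keap1 fell 2.43-fold and 3.78-fold.

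Ncf4 and Rac2 lie 297 kb apart on chromosome 15 with 10 protein-coding genes between them. As given above, Rac2 fell with doxycycline in experiment 1 and in entinostat, and Ncf4 rose in both entinostat comparisons; the difference between the genes was not tested. Between them, Csf2rb, the common beta chain of the IL-3, IL-5 and GM-CSF receptors, stood at 13.1, 21.2 and 32.9 CPM in NoDox_DMSO and at 77.5, 190 and 211 CPM in NoDox_Entinostat. It rose by 2.83 ± 0.59 on the log2 scale (adjusted p = 0.00167), and its near-identical copy Csf2rb2 rose by 2.38 ± 0.58; reads of these copies may be split between them. The sulfurtransferase genes Tst (2.02 ± 0.26) and Mpst (0.59 ± 0.18) rose as well, and Tmprss6 was called higher from 0 counts in NoDox_DMSO. Tmprss6 passed the count filter only through Dox_Entinostat (10, 17 and 37 counts), so its calls with entinostat are no test. The other tested genes of the interval, Csf2rb, Csf2rb2, Tst and Mpst, were thus called higher, as was Ncf4, where 30.3% of all genes were. The first 2 may share reads, so they are not separate cases. The call of Mpst was lost without NoDox_DMSO library 1 or 2 or NoDox_Entinostat library 3. With entinostat in the presence of doxycycline Csf2rb (2.24 ± 0.58) and Tst (1.48 ± 0.25) were called higher, where 33.9% of all genes were. Tmprss6 was also called (2.27 ± 0.68), again no test, and its call was lost without Dox_DMSO library 2 or Dox_Entinostat library 3. Csf2rb2 (1.04 ± 0.56, adjusted p = 0.122) and Mpst (-0.11 ± 0.18, adjusted p = 0.596) were not called. With doxycycline in DMSO Tst and Mpst rose (1.59 ± 0.26 and 1.10 ± 0.18), where the value of Rac2 was -0.96.

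The likeness of patterns was measured as the root mean square difference of log2 CPM, centred within each experiment, over the 18 libraries and 8243 genes. Nearest to Cyba were Cd84, a SLAM family receptor (0.376), Tec, a kinase related to Btk (0.425), and Limd2 (0.452). Nearest to Rac2 were Lasp1 (0.120), the calcium channel gene Orai2 (0.127) and Plvap (0.130). Nearest to Ncf4 were Msh5 (0.383), Depdc7 (0.386) and Dennd2d (0.402). Among Cyba, Rac2 and Ncf4 themselves the differences were 1.22 to 1.25. The nearest genes were picked as the smallest differences out of 8243 genes, so that they lay closer was set by the selection. Cd84 fell with doxycycline in experiment 1 (-2.40 ± 0.26), in DMSO (-3.31 ± 0.31) and in entinostat (-1.77 ± 0.29), and rose with entinostat in the presence of doxycycline (2.32 ± 0.30). Msh5 rose with entinostat without doxycycline (1.23 ± 0.21) and with it (2.56 ± 0.21). Lasp1 fell with doxycycline in experiment 1 (-0.82 ± 0.11) and in entinostat (-1.41 ± 0.34; call lost without NoDox_Entinostat library 2 or 3 or Dox_Entinostat library 3) and was not called in DMSO (-0.83 ± 0.34, adjusted p = 0.174). These genes were selected for likeness over the same libraries, so their values describe the match and test nothing.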

How the data were processed

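Polyadenylated RNA of 18 libraries was sequenced by the authors, and each experiment has 1 table of gene counts, deposited by the authors without normalization. The tools STAR, DESeq2 and bcl2fastq (version 2.17.1.14) and the build mm10 are named, per the submitters' processing notes; their roles, the counter and annotation are not given in the sources used here. The experiment 1 table has a lowest value of 1. GENCODE M21 gave positions and exon lengths and held 24876 and 26853 of the listed genes.

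Each experiment was fitted alone with edgeR 4.0.16 (R 4.3.3): quasi-likelihood tests on group means, TMM factors, filterByExpr (minimum count 10; 13811 and 15051 genes kept), two-sided, Benjamini-Hochberg adjustment over all genes tested, threshold 0.05. Log2 fold changes carry standard errors, with 3 libraries a group. The fit was tested on simulated data. The precision of a level depends on its counts.

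The genes, the lists and the tests were chosen with earlier results of these data known. Named were the 5 genes, Spi1 and Rac1 in every comparison, up to 4 called genes of smallest adjusted p per list and comparison, and the 3 genes most like each subunit (at least 5 CPM). Named outside this rule, after their values were seen, were Noxo1, Cybc1, Hvcn1, Irf8, Cebpa and the genes between Ncf4 and Rac2. Some listed genes are not reported here and are left out of every list count. A library pair of the same number in experiment 1 correlated at 0.313 to 0.829 in its deviations from group means, all 3 above the limit of 0.1 for pairing, while other pairs reached 0.259; the origin of the pairing is not given in the labels. In experiment 2 the pairs of NoDox_DMSO and Dox_DMSO (0.102 to 0.334) all passed too, so blocked values are given for that comparison where they change a call. In the other 3 comparisons 0, 0 and 2 of 3 pairs passed, and those libraries were not taken as paired. The highest same-number values were between NoDox_Entinostat and Dox_DMSO (0.533 to 0.78), while pairs of different numbers in experiment 2 reached 0.476. The block was fitted over all libraries of experiment 2, so it also rests on groups not taken as paired. Alternatives tried were factors by RLE, no scaling beyond library size, no filter, 1 CPM in 3 libraries, DESeq2 1.42.0, limma-voom (3.58.1), a replicate block, the 2 groups alone, counts minus 1 in experiment 1, each library left out, and Dox_DMSO library 1 with NoDox_Entinostat library 1 left out.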

Additional observations from a re-analysis of the deposited data

Results flagged for a closer look

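For 1 gene named in the report the doxycycline effect differed between entinostat and DMSO by the test of the difference itself. Tec, the kinase whose pattern was among the nearest to that of Cyba, fell by 3.50 in DMSO and by 1.35 in entinostat, a difference of 2.14 ± 0.31 (edgeR adjusted p = 0.01). The call of Tec was lost without Dox_Entinostat library 2.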

How the results depend on the processing

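Of 353 values of the oxidase genes under alternatives, 323 kept their direction and their side of the threshold, 14 lost the call, 14 gained it and 2 changed sign. The falls of Cyba in the 3 doxycycline comparisons, its rise with entinostat in the presence of doxycycline, both rises of Ncf4, and the falls of Rac2 in experiment 1 and in entinostat kept their calls in every alternative run. The fall of Rac2 with entinostat in the presence of doxycycline lost its call with RLE factors (-0.67), library size alone (-0.56), the 1 CPM filter (-0.57), limma-voom (-0.61) and the 2 groups alone (-0.55), each leaving 0 genes called lower, and ranged from -0.96 to -0.49 without single libraries (0 to 1 genes lower). The Rac2 value in DMSO gained a call with no filter (-0.98), the 1 CPM filter (-0.97), DESeq2 (-0.95), limma-voom (-1.04), the replicate block (-1.03) and without the 2 libraries that stood apart (-0.70), making 2 genes lower, and ranged from -1.17 to -0.70 without single libraries (1 to 2 genes lower). With no filter, 2 genes were called higher with entinostat without doxycycline, and the Cyba interaction passed at 1.48 (1 gene higher). Without the 2 libraries the interactions of Cyba (2.56), Ncf4 (1.46) and Rac2 (-0.89) passed, 2 genes higher and 1 lower; without single libraries that of Cyba ranged from 1.31 to 2.20 (0 to 1 genes higher). The sign changed for Cyba with entinostat without doxycycline (-0.17 without the 2 libraries; -0.17 to 0.38 without single libraries) and for Rac1 (0.15 with library size alone, 0.10 without the 2 libraries and -0.24 to 0.10 without single libraries). The cause was not tested.

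Counts over all genes moved more. DESeq2 called 1138 genes higher in experiment 1, 870 in DMSO and 2080 with doxycycline in entinostat, and 122 higher and 113 lower in the interaction. With the replicate block, experiment 1 gave 3611 higher and 3416 lower, and Ncf4 passed at -0.65; the block gave 887 higher in DMSO, 2691 higher and 3424 lower in entinostat, and 73 and 104 in the interaction. Besides Ncf4 in experiment 1 and Rac2 in DMSO, it changed no call of the oxidase genes. Library size alone gave 1233 lower with entinostat without doxycycline, moved the median of all genes there by 0.25, and raised the share of higher calls from 64.1% to 81.5%; with doxycycline in entinostat that share went from 37.3% to 26%. With no filter the interaction had 67 higher and 139 lower. Without the 2 libraries the counts were 2697 higher and 2149 lower in DMSO, 4040 and 5529 in entinostat, 4286 lower with entinostat without doxycycline, and 3326 and 4646 in the interaction. Without single libraries, higher and lower calls ranged over 197 to 567 and 487 to 941 in experiment 1, 325 to 836 and 536 to 991 in DMSO, 228 to 3152 and 766 to 4431 in entinostat, and 6 to 1018 and 3 to 2133 in the interaction. Depth limits Cybb and Ncf1, which had 12 counts or fewer in each library, so no change in them could be sized.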

Other observations

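Nnt, the mitochondrial transhydrogenase that makes NADPH, stood at 52.7, 52.9 and 52.3 CPM in Exp1_NoDox and at 2.88, 2.48 and 3.1 CPM in NoDox_DMSO, although both groups are labelled as the same line without doxycycline. Cebpb stood at 8.41, 11.1 and 9.07 CPM in Exp1_NoDox and at 1.51, 0.63 and 1.24 CPM in NoDox_DMSO. NoDox_DMSO received vehicle, and the tables of the 2 experiments were normalized separately, so these levels are given side by side with no test.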
